A study of Oryza sativa with 12 samples.

Results

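In rice peduncles, 71 genes were well expressed while the peduncle was elongating and below 1 FPKM once it had stopped, in both cultivars. FPKM is a fragment count corrected for transcript length and sequencing depth. The genes were chosen from the deposited expression values themselves: a locus was taken when its level was 10 FPKM or more in both elongating groups and below 1 in both non-elongating groups. The rule was met by 71 of 53380 loci that have a row of their own, and by 71 of the 5975 loci that reached 10 FPKM in both elongating groups. Since these values chose the genes, the drop itself is a description and carries no test.

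The peduncle is the uppermost internode, which carries the panicle. It grows from an intercalary meristem at its base, where cells divide before they elongate and mature upwards. Its rapid extension around heading pushes the panicle out of the flag leaf sheath. As growth ends, division and wall loosening give way to wall thickening and to transport of assimilates towards the grain.

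First internodes of field-grown rice (Oryza sativa) were sampled in the cultivars Swarna and Pokkali before heading (elongating peduncle, EP) and after heading (non-elongating peduncle, NP). Swarna is the shorter cultivar and Pokkali the taller one. Each of the 4 groups had 3 libraries of total RNA, but the values hold 1 pooled FPKM per gene and group, so every difference below is a ratio of group values with no replicate check, no error and no p-value. The depth behind a single value was not recovered, and values far below 1 FPKM are the least precise. Whole peduncle was sampled, so fewer cells of a type and less RNA per cell cannot be told apart. The identity of the tissue was not checked against peduncle markers.

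Among the 5975 loci with 10 FPKM or more in both EP groups, an NP value below 1 was uncommon. In Swarna NP it was seen for 149 loci (2.49%) and in Pokkali NP for 106 (1.77%). The 71 genes (1.19%) were below 1 in both, 78 loci were below 1 in Swarna NP only, and 35 in Pokkali NP only. Most loci kept their expression, as 5387 had 10 FPKM or more in at least 1 NP group. The 71 genes do not form a separate peak at the low end: when loci were sorted by the higher of their NP values, 23 lay under 0.5 FPKM, 48 between 0.5 and 1, 62 between 1 and 2, and 156 between 2 and 5. The mirror rule, with 10 FPKM or more in both NP groups and below 1 in both EP groups, gave 23 genes out of 5868.

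**Figure D1:**
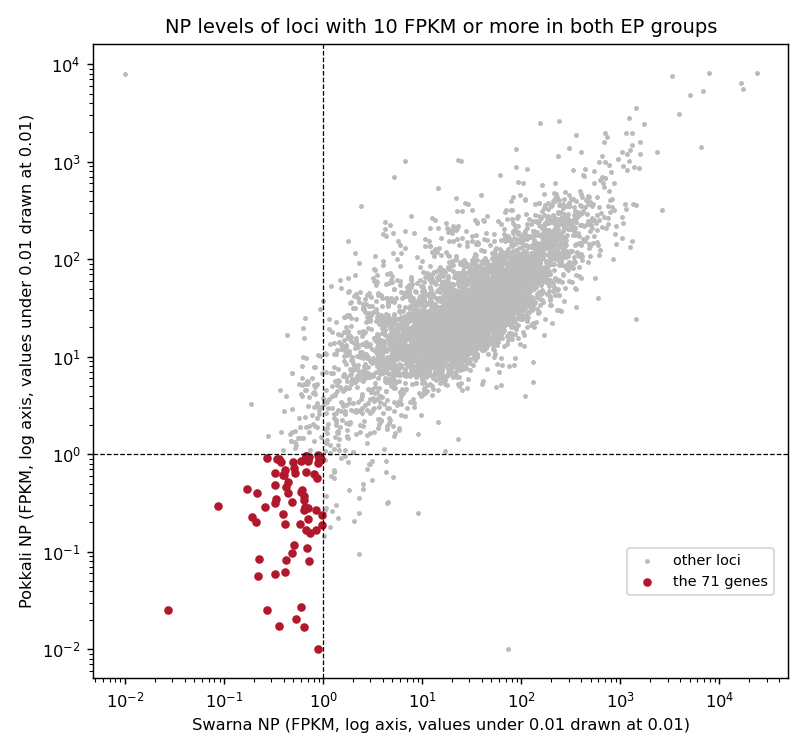
Level in Swarna NP (x axis) against Pokkali NP (y axis), in FPKM on log axes, for the 5975 loci with 10 FPKM or more in both EP groups, 1 point per locus. Red points are the 71 genes in the corner under 1 FPKM on both axes (dashed lines), which continues the lower end of the cloud; values under 0.01, listed zeros included, are drawn at 0.01.

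The 71 genes were moderately expressed in elongating peduncles. Their FPKM ranged from 10.1 to 48.8 (median 16.8) in Swarna and from 10.3 to 55.6 (median 16.3) in Pokkali before heading, whereas the 5975 loci stood at medians of 21.2 and 26.9. Only 11 of the 71 reached 20 FPKM in both EP groups. In NP the range was 0.0273 to 0.977 with a median of 0.514 in Swarna, and 0 to 0.987 with a median of 0.340 in Pokkali. Together the 71 genes made up 0.411% of the FPKM summed over all loci in Swarna and 0.332% in Pokkali at EP, against 0.00631% and 0.00598% at NP.

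**Figure D2:**
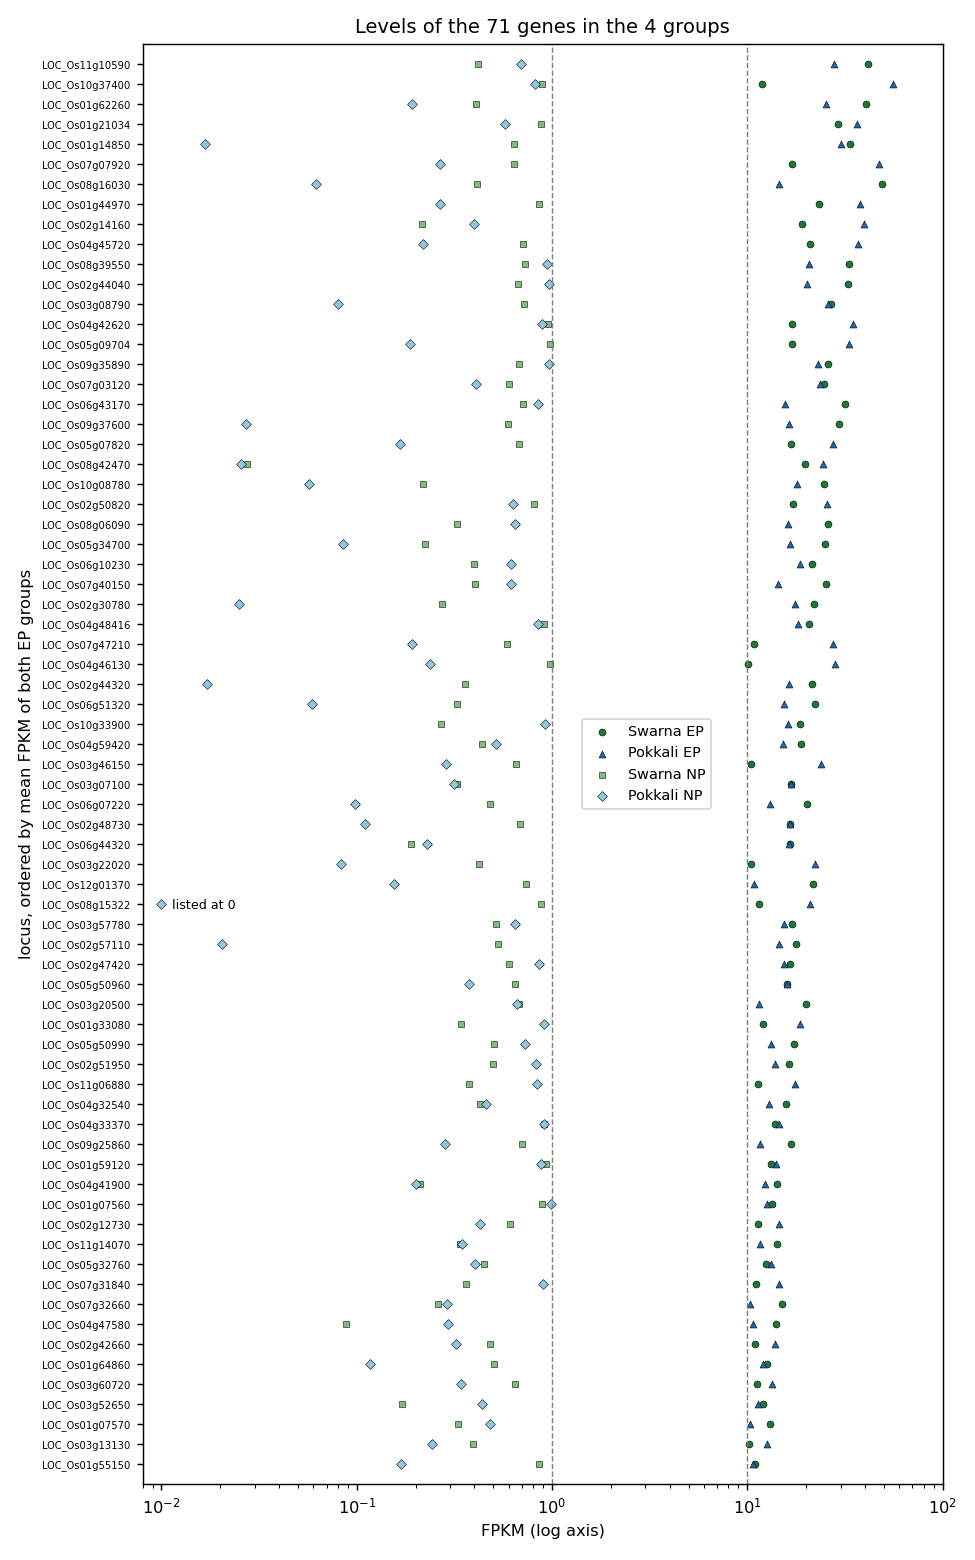
FPKM (x axis, log scale) of each of the 71 genes (y axis, by mean EP level) in the 4 groups, 1 marker per pooled group value. EP markers lie right of 10 and NP markers left of 1 by the rule (dashed lines), and the Pokkali NP values reach lower than those of Swarna NP; the value listed at 0 is drawn at 0.01.

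With 0.5 added to every FPKM value, the median log2 of NP over EP was -4.14 in Swarna (range -5.76 to -2.84) and -4.19 in Pokkali (range -5.95 to -3.14). Over the 19126 genes with at least 1 FPKM in at least 1 group, the medians were 0.03 and 0.05. By construction all 71 were more than 2-fold lower in NP, where 25.4% of the 19126 genes were at least 2-fold lower in Swarna, 14.8% in Pokkali and 11.0% in both (21.8%, 16.9% and 11.9% of the 5975 loci). Without the added constant, EP was a median of 33.6 times NP in Swarna and 42.8 times in Pokkali, the latter over the 70 genes with a Pokkali NP value above 0. The median share of the EP level left in NP was 2.98% in Swarna and 2.33% in Pokkali. The label "switched off" therefore covers genes with a small remaining signal: 38 of the 71 still had 0.5 FPKM or more in Swarna NP and 26 in Pokkali NP.

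A functional description was at hand for 5 of the 71 genes, from the gene lists of the study. The others carry only a locus identifier of the Rice Genome Annotation Project here, and no role is given for them. Of the annotated genes, 4 stand in a list of anther and pollen genes that were higher in elongating peduncles, and 1 in the list of transcription factors. In both lists the study kept genes that changed in these same samples, so their direction is not independent evidence.

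LOC_Os04g45720, on chromosome 4 (27043961 to 27048900, in the coordinates of Rice Genome Annotation Project release 7), is annotated as an aldehyde dehydrogenase, an enzyme class that oxidises aldehydes to acids. In Swarna its level was 20.9 FPKM before heading and 0.711 after, and in Pokkali 36.9 before and 0.218 after. It was the most highly expressed of the annotated genes, and its log2 ratio was more negative in Pokkali (-5.70) than in Swarna (-4.14).

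LOC_Os04g32540 (chromosome 4, 19591898 to 19595564) is annotated as OsSCP24, a putative serine carboxypeptidase, a family of enzymes that remove amino acids from the carboxyl end of proteins. Swarna peduncles held 15.7 FPKM before heading and 0.427 after, those of Pokkali 12.9 before and 0.458 after. Both stages were nearly level between the cultivars, and the log2 ratio was -4.13 for Swarna and -3.81 for Pokkali.

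LOC_Os01g07560 (chromosome 1, 3621094 to 3625356) is annotated as a receptor-like protein kinase 2 precursor. Receptor-like kinases sit in the plasma membrane and pass signals from outside the cell inwards by phosphorylation. Its level went from 13.3 to 0.883 FPKM in Swarna and from 12.6 to 0.987 FPKM in Pokkali. This was the mildest mean drop of the 71, at log2 ratios of -3.32 and -3.14.

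The annotations name bZIP for a pair of genes. LOC_Os01g55150 stands as bZIP in the transcription factor list. LOC_Os05g32760 is described as a putative bZIP protein in the anther and pollen list and is absent from the transcription factor list. Transcription factors of the bZIP family bind DNA as dimers through a basic region and a leucine zipper. LOC_Os05g32760 (chromosome 5, 19178244 to 19183739) went from 12.5 FPKM at EP to 0.447 at NP in Swarna, and from 13.2 to 0.405 in Pokkali. LOC_Os01g55150 (chromosome 1, 31728014 to 31730389) went from 10.9 to 0.856 FPKM in Swarna and from 10.7 to 0.168 in Pokkali. Their EP levels were nearly equal between the cultivars, while LOC_Os01g55150 kept a higher NP level in Swarna, with the lowest mean EP level of the 71 genes. In the transcription factor list, LOC_Os01g55150 was the one gene of 815 to meet the rule. Of these, 200 had 10 FPKM or more in both EP groups. The rule was met by 1.19% of the 5975 loci, but the study listed transcription factors that differed between the stages. The 5975 loci are thus not a like background, and nothing is read from a count of 1 among 200. The bZIP family of that list has 40 genes, of which 15 had 10 FPKM or more in both EP groups. Of the 40, 6 were at least 2-fold lower in NP in both cultivars and 7 at least 2-fold higher. In the whole transcription factor list of 815 genes, 138 were lower and 206 higher in this way. Among all 19126 genes, which were not chosen for a change, 11.0% were lower.

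The anther and pollen list gave the most members, 4 of its 50 genes and 4 of the 27 (14.8%) with 10 FPKM or more in both EP groups. All 27 were at least 2-fold lower in NP in both cultivars, and among all 712 loci of that kind the 71 genes made up 9.97%, against 1.19% of the 5975 loci. As a whole it stood at a summed 1968 FPKM at EP and 186 at NP for Swarna, and 2357 at EP and 304 at NP for Pokkali. In 49 of the 50 genes NP was at least 2-fold lower in both cultivars, and the median log2 ratios were -2.69 and -2.56. The study compiled anther and pollen genes from published sources and listed here those that were higher in EP in both cultivars. The drop, in all 27 as well, follows from that choice. Below 1 FPKM stood 22 of the 50 genes in Swarna NP and 26 in Pokkali NP (20.3% and 18.0% of the 19126 genes, 2.49% and 1.77% of the 5975 loci), with 1 gene listed at 0 in Pokkali NP and none in the other groups. The 19126 genes and the 5975 loci were not chosen for a drop in NP, so their shares are not a like background. Whether other tissue in the samples had a part in the low NP values of the list was not tested. No gene of the carbohydrate list (42 genes), the list of cellulose synthase and cellulose synthase-like genes (24), the hormone list (134) or the lignin list (11) met the rule. Only 99 genes of these lists had the EP minimum, and 1.19% of the 5975 loci met the rule. The study listed genes that differed between the stages, in either direction. The 5975 loci are therefore not a like background here either, and nothing is read from a count of 0. Of all 1035 listed loci, 308 had the EP level (5.15% of the 5975 loci) and 5 were among the 71 (7.04%).

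Several listed genes with clear EP levels missed the rule because 1 or both NP values lay between 1 and 2 FPKM. LOC_Os06g43600, LTPL129, of a family of lipid transfer and protease inhibitor proteins, had 109 FPKM at EP and 1.03 at NP in Swarna, beside 35.7 and 0.146 in Pokkali. OsER2 (LOC_Os02g53720, annotated as a phytosulfokine receptor precursor) had 45.9 and 42.3 FPKM in EP and 1.09 and 1.41 in NP, in the order Swarna, Pokkali. CSLA1 (LOC_Os02g09930), a cellulose synthase-like gene, had 95.2 and 56.8 FPKM in EP, and 1.67 and 0.949 in NP. LOC_Os12g40900 belongs to the AUX/IAA family of auxin-response repressors and had 24.9 and 39.0 FPKM in EP and 0.562 and 1.45 in NP. The limit of 1 FPKM thus divides a continuous range of values, and these 4 genes were picked from the listed genes after their values were seen.

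The same holds at each edge of the rule. Just inside the NP limits stood LOC_Os04g46130 at 0.977 FPKM in Swarna NP and LOC_Os01g07560 at 0.987 in Pokkali NP, and just outside them LTPL129 at 1.03 and LOC_Os04g39610 at 1.11. At the lower EP limit, the first genes inside were LOC_Os04g46130 with 10.1 FPKM in Swarna EP and LOC_Os01g07570 with 10.3 in Pokkali EP. Just outside stood LOC_Os01g68589 at 9.9995 FPKM and an HMG-family gene, LOC_Os02g15810, at 9.95 in Swarna EP, and LOC_Os03g15790 at 9.91 in Pokkali EP. With 5 FPKM as the EP minimum 231 loci would meet the rule and with 20 FPKM 11, while an NP limit of 0.5 would leave 23 and a limit of 2 would admit 133.

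Of the 10 highest mean EP levels, all but that of the aldehyde dehydrogenase gene belonged to loci without a description. LOC_Os11g10590 had EP levels of 41.7 (Swarna) and 27.8 FPKM (Pokkali), and NP levels of 0.415 and 0.696. LOC_Os01g62260, in the same order, had 40.3 and 25.3 FPKM in EP, and 0.408 and 0.191 in NP. LOC_Os01g21034 had 29.2 and 36.2 FPKM in EP, and 0.875 and 0.574 in NP. The first pair was higher in Swarna EP, and the third gene higher in Pokkali EP.

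LOC_Os01g14850 had nearly equal EP levels, 33.7 FPKM in Swarna and 30.1 in Pokkali, but its NP levels were 0.638 in Swarna and 0.0168 in Pokkali. LOC_Os01g44970 went from 23.4 to 0.856 FPKM in Swarna and from 37.7 to 0.266 in Pokkali. LOC_Os02g14160 went from 18.9 to 0.215 FPKM in Swarna and from 39.6 to 0.399 in Pokkali. In LOC_Os01g44970 the lower NP level was that of Pokkali and in LOC_Os02g14160 that of Swarna, although EP was higher in Pokkali in both.

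The deepest drop was seen in a gene whose NP level came close to 0 in both cultivars. LOC_Os08g42470 (chromosome 8, 26841063 to 26843299) went from 19.8 FPKM at EP to 0.0273 at NP in Swarna, and from 24.2 to 0.0255 in Pokkali. It had the most negative mean log2 ratio of the 71 (-5.26 in Swarna and -5.56 in Pokkali), and was the one gene under 0.1 FPKM in both NP groups. LOC_Os10g08780 went from 24.7 to 0.219 FPKM in Swarna and from 18.0 to 0.0569 in Pokkali. With LOC_Os01g62260, these were the 3 genes with log2 ratios of -5 or lower in both cultivars, while 24 had ratios of -4 or lower in both and 10 above -4 in both.

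LOC_Os01g14850, LOC_Os08g16030, LOC_Os02g14160, LOC_Os11g10590 and 3 further genes complete the 10 deepest mean drops. LOC_Os05g34700 showed ratios of -5.15 for Swarna and -4.86 for Pokkali, with 25.1 and 16.5 FPKM in EP and 0.223 and 0.0851 in NP. LOC_Os03g08790 had 26.8 and 25.8 FPKM in EP and 0.719 and 0.0806 in NP, for ratios of -4.48 and -5.50. LOC_Os02g30780 had 21.8 and 17.6 FPKM in EP and 0.274 and 0.0250 in NP, for ratios of -4.85 and -5.11. Across the 71 genes the 2 ratios lay within 1 log2 unit of each other in 52, and Pokkali was lower by 1 or more in 13 and Swarna in 6. At any size, the ratio was more negative in Pokkali in 38 of the 71 genes (53.5%), beside 63.8% of the 5975 loci and 52.0% of the 19126 genes. The counts rest on values that the rule used, and near 0 the added constant weighs heavily on a ratio.

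In elongating peduncles most of the 71 genes had like levels in the 2 cultivars. The rule cut both EP values at 10 FPKM, so the comparison of the cultivars at EP is a description only. On the FPKM + 0.5 scale, 62 were within 2-fold, 8 were at least 2-fold higher in Pokkali EP and 1 in Swarna EP. Among the 5975 loci with the EP minimum, 10.7% were at least 2-fold higher in Pokkali EP and 1.56% in Swarna EP. Among the 19126 genes the shares were 9.92% and 7.49%. The counts are thus close to the shares of the 5975 loci, although those had higher median EP levels. The balance changes with the scaling: with the columns set to equal sums 9 genes were at least 2-fold higher in Swarna EP and 3 in Pokkali EP, with median-ratio scaling 3 and 5, and with quantile normalization 11 and 5. The 3 genes furthest towards Pokkali were LOC_Os10g37400, with 11.9 FPKM for Swarna and 55.6 for Pokkali, LOC_Os07g07920 with 16.8 and 47.0, and LOC_Os04g46130 with 10.1 and 27.9. Their NP values were 0.892 and 0.820, 0.634 and 0.268, and 0.977 and 0.238, again Swarna before Pokkali.

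In the other direction LOC_Os08g16030 (chromosome 8, 9780200 to 9781984) reached 48.8 FPKM in elongating Swarna peduncles and 14.5 in those of Pokkali, the highest Swarna value of all 71 genes, with 0.411 and 0.0615 in NP. LOC_Os06g43170 with 31.5 and 15.5 FPKM and LOC_Os12g01370 with 21.7 and 10.8 followed, just under 2-fold after the constant was added. Counted at any size, more of the 71 genes were higher in Swarna EP than in Pokkali EP. These shares too come from EP values that the rule used, and no cultivar difference is read from them. Swarna EP was the higher value in 43 of the 71 genes (60.6%), against 26.7% of the 5975 loci, 45.4% of the 19126 genes, 29.4% of the 4555 loci within the EP range of the 71 genes, and 29.5% of the 712 loci with the EP minimum that were at least 2-fold lower in NP in both cultivars. The loci most like the 71 genes, 218 with the EP minimum whose higher NP value was 1 to 5 FPKM, had 38.5%. The median log2 ratio of Swarna to Pokkali in EP was 0.09 for the 71 genes, -0.13 for the 218 loci and -0.30 for the 5975 loci. With equal column sums the shares were 74.6% of the 71 genes and 53.4% of the 5975 loci, with median-ratio scaling 67.6% and 37.5%, and with quantile normalization 70.4% and 53.4%.

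**Figure D3:**
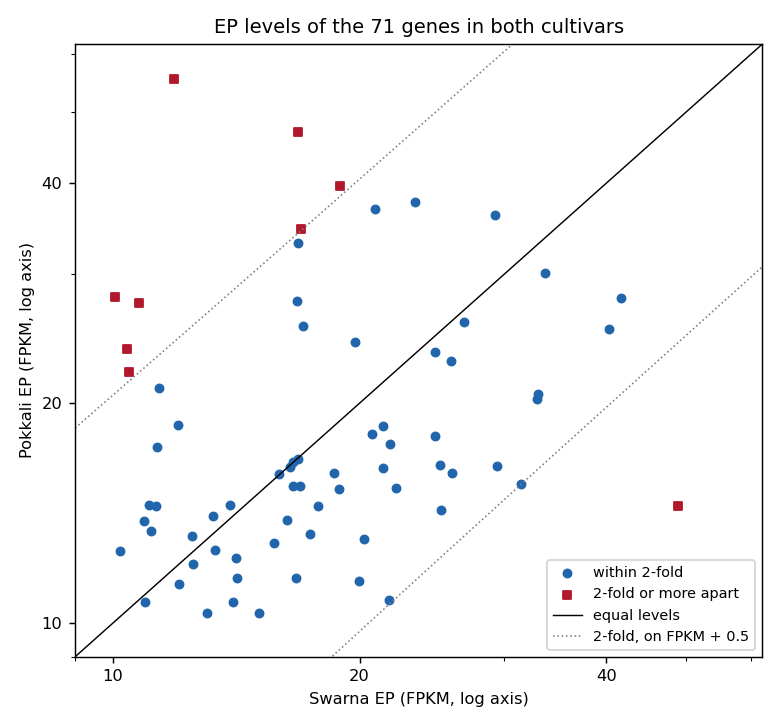
FPKM in Swarna EP (x axis) and Pokkali EP (y axis) of the 71 genes, on log axes, 1 point per gene. Red squares are the 9 genes at least 2-fold apart on the FPKM + 0.5 scale (dotted lines), 8 above and 1 below; the solid line marks equal levels.

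The NP values of the cultivars chose the genes and are given only as a description. Swarna NP was at least 2 times Pokkali NP in 27 of the 71 genes, and Pokkali NP at least 2 times Swarna NP in 6. In the 5975 loci, whose NP medians were 26.6 and 24.9 FPKM, the shares were 17.0% and 19.5%, and in the 19126 genes 24.8% and 25.9%, but ratios between values under 1 FPKM are not comparable with those of expressed genes. With equal column sums the counts were 24 and 10, with quantile normalization 25 and 9, and with median-ratio scaling 27 and 6. At 5 times or more the counts were 13 and 0, beside 1.71% and 5.82% of the 5975 loci. Below 0.1 FPKM stood 14 of the 71 genes in Pokkali NP and 2 in Swarna NP, LOC_Os08g42470 and LOC_Os04g47580, out of 16 (0.268%) and 3 (0.0502%) of the 5975 loci, nearly all of them the genes of the rule itself. No difference between the cultivars is read from these values, which are all of low precision.

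Leaving out the locus listed at 0, the other 13 genes under 0.1 FPKM in Pokkali NP ranged there from 0.0168 to 0.0978 FPKM with a median of 0.0569, and in Swarna NP from 0.0273 to 0.719 with a median of 0.411. Their EP levels had medians of 22.1 FPKM in Swarna and 16.5 in Pokkali, against 16.6 and 16.01 for the remaining 57 genes. LOC_Os02g44320 went from 21.3 to 0.356 FPKM in Swarna and from 16.3 to 0.0172 in Pokkali. LOC_Os09g37600 went from 29.4 to 0.594 FPKM in Swarna and from 16.4 to 0.0271 in Pokkali. LOC_Os02g57110 went from 17.8 to 0.529 FPKM in Swarna and from 14.5 to 0.0204 in Pokkali. All 3 were under 0.03 FPKM in Pokkali NP and above 0.3 in Swarna NP, and were picked after their values were seen.

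For LOC_Os08g15322 (11.4 FPKM at EP and 0.881 at NP in Swarna, 21.0 at EP in Pokkali) the Pokkali NP value is listed at 0. It shares an assembled span on chromosome 8 (9269277 to 9281775) with 5 other rows, and all 6 rows are listed at 0 in Pokkali NP although all 6 are above 0 in Pokkali EP. In the same span LOC_Os08g15270 has 111 FPKM at EP and 74.1 at NP in Swarna, and 107 at EP in Pokkali. The 0 belongs to the whole span, so no fold is given for this gene, and without it 70 genes meet the rule.

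The spans in which the 71 genes were assembled were also compared. A span covers all overlapping rows and is thus not always that of 1 gene: 9 of the 71 share theirs with another row of at least 1 FPKM, and 62 genes remain without them. The median span was 2998 bases for the 71 genes, 4501 for the 5975 loci and 3861.5 for the 712 loci with the EP minimum that were at least 2-fold lower in NP in both cultivars. Spans under 1500 bases made up 19.7% of the 71 genes (14 genes), 6.16% of the 5975 loci, 14.5% of the 712, and 15.6% of the 218 loci with a higher NP value of 1 to 5 FPKM, whose median span was 3781 bases. The 712 and the 218 loci thus lay between the 5975 loci and the 71 genes, in median span and in the share of short spans. Among the 13 genes with low but nonzero Pokkali NP values the median was 1671 bases, and 5 of them were under 1500. The shortest span of all 71 genes was that of LOC_Os11g10590, at 387 bases (chromosome 11, 5808742 to 5809128). This gene is not among the 13, and it had the highest mean EP level of the 71.

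A merged assembly can hold several rows for 1 locus. For 23 of the 71 genes there were 29 further rows, all under 1 FPKM in every group and 4 of them at 0 throughout, so no second row of these genes was expressed at 1 FPKM or more in NP. With the rows of a locus summed, 68 loci met the rule, 65 of them among the 71.

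The 71 genes were spread over all 12 chromosomes, with 11 on chromosome 2, 10 on chromosome 1 and 1 on chromosome 12. These are 1.49% of 739, 1.14% of 879 and 0.373% of 268 loci with the EP minimum, beside 1.19% of all 5975. The highest share was 1.86% on chromosome 4, with 9 of 485 loci. Only 2 pairs lay within 100000 bases of each other. The receptor-like kinase gene LOC_Os01g07560 and LOC_Os01g07570 are 7881 bases apart with no other compared gene between them, and the latter went from 13.02 to 0.328 FPKM in Swarna and from 10.3 to 0.481 in Pokkali. LOC_Os05g50960 and LOC_Os05g50990 are 14955 bases apart. They had EP levels of 15.9 and 17.4 FPKM in Swarna, and of 16.01 and 13.3 in Pokkali, with NP levels of 0.643 and 0.503, and of 0.374 and 0.725.

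The genes next to the 71 were compared as well, in the order of the starts of their assembled spans. Some of these neighbours share the span of a member, and their order within it is not known. LOC_Os08g15312, beside LOC_Os08g15322, is such a neighbour and is listed at 0 in Pokkali NP with its whole span. Of the 142 nearest compared genes on either side, 25 (17.6%) were at least 2-fold lower in NP in both cultivars and 14 (9.86%) at least 2-fold higher. The neighbours include the adjacent pair on chromosome 1, whose values the rule used, and without these 2 genes 23 of 140 (16.4%) were lower. Next to the 5975 loci 11.2% were lower in this way, next to the 712 loci 14.8%, and 11.0% of all 19126 genes were. At least 2-fold higher in both cultivars were 10.3% next to the 5975 loci and 10.1% next to the 712. The median log2 ratio of the 142 neighbours was -0.37 in Swarna and -0.24 in Pokkali, beside 0.04 and 0.03 next to the 5975 loci.

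Some of these neighbours were highly expressed. LOC_Os01g55160 lies 1584 bases from the bZIP gene LOC_Os01g55150 and went from 65.7 to 3.66 FPKM in Swarna and from 40.5 to 2.05 in Pokkali. LOC_Os03g22020, which went from 10.5 to 0.420 FPKM in Swarna and from 22.1 to 0.0832 in Pokkali, had a lower neighbour on each side. LOC_Os03g22010 had 7.06 and 10.5 FPKM in EP and 0.380 and 0.0436 in NP, and LOC_Os03g22040 had 8.32 and 9.92 in EP and 0.136 and 0.640 in NP, Swarna first. Both neighbours of a gene were at least 2-fold lower in both cultivars for 3 of the 71 genes, and at least 1 neighbour for 22. Counts of this kind were not made for the other loci, so nothing is read from them. Neighbours were named here after their values were seen, and whether near-identical copies share reads was not tested.

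**Figure D4:**
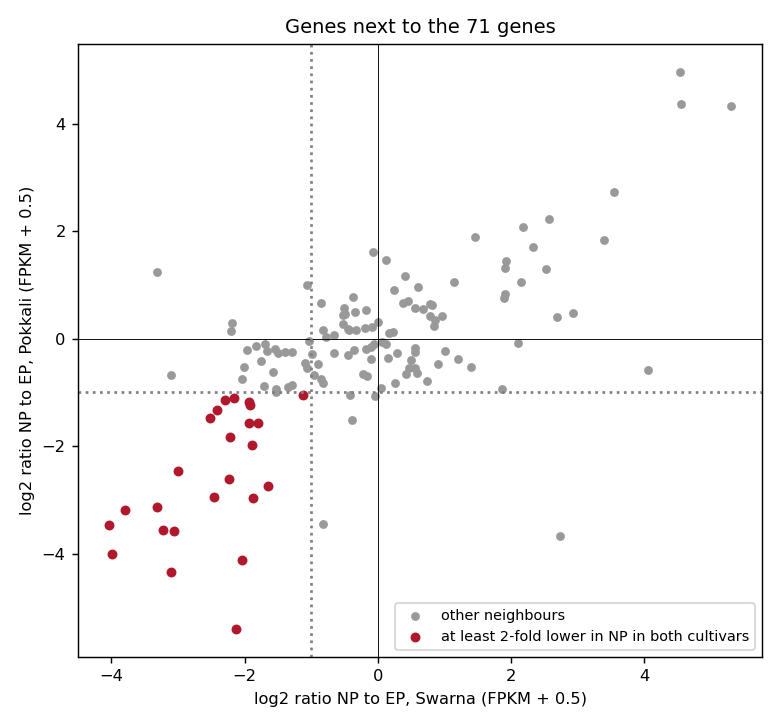
Log2 ratio of NP to EP, on FPKM + 0.5, in Swarna (x axis) and Pokkali (y axis) for the 142 nearest compared genes on either side of the 71 genes, 1 point per neighbour. Red points are the 25 at least 2-fold lower in NP in both cultivars (beyond both dotted lines); the other neighbours spread around 0.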

How the data were processed

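Libraries of stranded total RNA from peduncles (3 in each of the 4 groups) were processed by the authors with HISAT2 version 2.1.0 against Rice Genome Annotation Project release 7 and StringTie version 1.3.3b, merged with Cuffmerge, and quantified with Cufflinks and Cuffdiff. The deposited values are FPKM, 1 pooled value for each row and group. Of 73781 rows, 62442 name a single locus, and the row with the highest mean was used for a locus. Ratios used log2(FPKM + 0.5) with a 2-fold minimum over 19126 genes with 1 FPKM or more in at least 1 group. No depth per value, interval or test was available, and the planned model over libraries was not run. The column sums over loci were 330514 (Swarna EP), 609663 (Swarna NP), 419002 (Pokkali EP) and 502800 FPKM (Pokkali NP).

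The members and lists were chosen with earlier results of these data known. Named genes were those with an annotation, the 10 highest in EP, the 10 deepest drops, the 3 largest cultivar differences in each direction, genes at each threshold, up to 4 of each list, and adjacent members. Lists and tissue markers by product name, promoter motifs and sequences were not analysed here, since the reference table shares no identifiers with these loci. Alternatives were other pseudocounts, thresholds, scalings and summed rows, and, chosen after seeing the data, leaving out the locus at 0 and shared spans. The calculation was tested on simulated data. Python 3.11.15, numpy 2.4.6, pandas 2.3.3, scipy 1.17.1 and matplotlib 3.10.9 were used.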

Additional observations from a re-analysis of the deposited data

How the results depend on the processing

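No paired analysis was possible because the columns hold 1 pooled value per group, and leaving out a replicate was not run for the same reason. The number of genes that met the rule was 231 and 11 with an EP minimum of 5 and 20 FPKM, and 23 and 133 with an NP limit of 0.5 and 2 FPKM. Dividing the columns by their sums gave 116 genes, among them all 71, median-ratio scaling 83 with all 71, and quantile normalization 63 with 55 of the 71. Equal column sums shifted the median over all genes compared by -0.77 (Swarna) and -0.18 (Pokkali), median-ratio scaling by -0.21 and -0.05, and quantile normalization by -0.14 and -0.02. The median log2 ratio of the 71 genes became -4.83 (Swarna) and -5.13 (Pokkali) with a pseudocount of 0.1, -3.60 in Pokkali with a pseudocount of 1, and -4.82 in Swarna with equal sums. For named genes only the pseudocount was varied (44 ratios), which cannot change the sign of a ratio. The count at least 2-fold higher in Swarna EP was 3 with a pseudocount of 0.1, 9 with equal sums, 3 with median-ratio scaling and 11 with quantile normalization, and that in Pokkali EP was 3, 5 and 5 under these scalings, so the balance between the cultivars depends on the scaling. Leaving out the locus listed at 0 gave medians of -4.14 and -4.16 over 70 genes, and leaving out shared spans -4.15 and -4.13 over 62. Genes with Pokkali NP at least 2 times Swarna NP numbered 10 with equal sums. Over all 19126 genes, 8182 were at least 2-fold lower in Swarna NP with equal sums, in place of 4849.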

Other observations

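One further row that names a pair of loci together, LOC_Os07g02810 and LOC_Os07g02840 (chromosome 7, 1055139 to 1065710), met the same limits, going from 18.0 to 0.433 FPKM in Swarna and from 17.5 to 0.897 in Pokkali. It was not counted, since its value cannot be assigned to either locus. Of 135 rows with no locus name that had 10 FPKM or more in both EP groups, 0 were below 1 FPKM in both NP groups.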
